A study of Chlorocebus sabaeus with 12 samples.

Results

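The clustered histone genes on a whole human genome array were followed in COS-1 cells that carried either of 2 mutants of the bile acid receptor FXR, with and without its ligand. All non-control probes whose gene name begins with HIST1H, HIST2H, HIST3H or HIST4H were taken, which gave 83 probes for 65 genes out of 30982 gene names. A probe passed when, in 1 group or more, every array had it well above background. The brightest probe that passed stood for its gene, which left 58 histone genes among 20355 genes tested. COS-1 is an SV40-transformed kidney cell line of the African green monkey. Cells that had transiently expressed human FXR for 24 h, with a serine replaced by alanine (S154A) or by aspartate (S154D), were given 0.1% DMSO or chenodeoxycholic acid (CDCA, 50 mM in the labels) for a further 24 h. The groups were S154A with DMSO, S154A with CDCA, S154D with DMSO and S154D with CDCA, with 3 one-colour arrays in each. No group had wild-type FXR or lacked transfected FXR. Nothing in the labels says that replicates were separate cultures, so p-values measure only the spread between these arrays, which may be technical.

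Histones are the proteins around which DNA is wound. The core histones H2A, H2B, H3 and H4 form the nucleosome particle, and the linker histone H1 binds the DNA where it enters and leaves. The clustered genes are the replication-dependent ones: they are many near-copies, they have no introns, and their transcripts accumulate as cells copy their DNA. Most of these transcripts end in a conserved stem-loop that is bound by the protein SLBP instead of in a poly(A) tail.

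The histone genes lie side by side on the genome and resemble each other, so the probes are shown first. In the human build hg17 given by the array files, 54 of the 65 genes (HIST1) map to chromosome 6 between 25834542 and 27969626. A further 7 (HIST2) and 3 (HIST3) map to chromosome 1, and HIST4H4 maps to chromosome 12. Each probe is 60 bases long. Of the 58 probes used, 24 shared an exact stretch of 20 bases or more with a probe of another histone gene, and the longest shared stretch was 41 bases, between HIST1H2BN and HIST2H2BE. Signal on such a probe may come partly from the other gene, and the array was hybridised with monkey RNA, so it also depends on the match to the monkey transcript.

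The H4 probes show how far near-identical genes can still be told apart. The letters TTNGGNGGN followed by TAA or TGA, the end of the H4 coding sequence with its stop codon, were found in 8 of 15 H4 probes (53.3%) and in 31 of all 41000 probes (0.0756%). On the opposite strand they were found in none of the H4 probes and in 14 of all probes (0.0341%). The stretches below, 30 bases each with the stop codon in capitals, belong to 5 genes on whose array values the H4 results turn.
HIST1H4B: tacggcttcggcggtTAAtcttttcgtcag
HIST1H4C: tatggcttcggcggcTGAatctaagaatac
HIST1H4L: tatggctttggcggcTGAgtgttttactta
HIST1H4J: tacggtttcggtggtTGAgcgtccctttct
HIST1H4K: tacggtttcggtggtTGAgcgtccctttct
The stretches of HIST1H4J and HIST1H4K are the same, and their probes share 37 bases in a row. They lie on chromosome 6 at 27900176 to 27900205 (plus strand) and at 27906961 to 27906990 (minus strand). The HIST1H4C stretch lies at 26212449 to 26212478.

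The stem-loop was searched as 6 bases that begin with GG, a loop of 4 bases that begins with TT, and the reverse complement of the first 6 bases. It was found in 2 of the 83 histone probes (2.41%), against 5 of all 41000 probes (0.0122%), and on the opposite strand in none of the histone probes and 2 of all probes (0.00488%). Both stretches are shown with the stems in capitals, since they mark how close to the transcript's end these probes lie.
HIST2H2AA3: ctcaaaaGGCTCTtttcAGAGCCacccacg
HIST1H4K: ctatcaacaaaaGGCCCTttttAGGGCCcc

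A pair of H2B probes shows how small the differences between genes of the family can be. The probes of HIST1H2BE and HIST1H2BF align base by base and differ at 4 of 60 positions, which are in capitals.
HIST1H2BE: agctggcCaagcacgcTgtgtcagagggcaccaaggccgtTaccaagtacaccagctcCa
HIST1H2BF: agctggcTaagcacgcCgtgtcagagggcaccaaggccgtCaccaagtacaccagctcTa

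Between 61.6% and 79.8% of the spots of an array were well above background, and 0 of the 83 histone probes were saturated. Over all genes, Spearman's rho of the deviation from the gene's mean with probe GC content differed between arrays. It ran from -0.61 (S154D CDCA array 3) to 0.45 (S154D DMSO array 2). Of the 58 genes tested, 55 were well above background on all 12 arrays, and the others were HIST1H2AL (6 arrays), HIST1H4D (8) and HIST1H4E (9). Each of these others passed only through the S154D CDCA group and is counted in the totals below. The 7 genes that did not pass were HIST1H1B, HIST1H1T, HIST1H2AA, HIST1H2AC, HIST1H2BA, HIST1H4G and HIST4H4, each well above background on at most 5 arrays. Of 9 markers of kidney epithelium and COS-1 cells, 8 were well above background on all arrays, as were 2 of 4 leukocyte, 2 of 4 hepatocyte and 1 of 3 endothelial markers, while the leukocyte marker PTPRC was so on none. As a check of the receptor's activity, the FXR targets FABP6, FGF19 and OSTalpha rose with CDCA in S154A cells, by 7.08 ± 0.57, 6.04 ± 0.76 and 2.56 ± 0.18 log2 units (SE, limma). In S154D cells 0 of these 3 were called, with changes of 0.16 ± 0.57, 0.21 ± 0.76 and 0.20 ± 0.18. File names place the arrays on 4 slides, and slide 3 alone held all 4 groups. S154D CDCA arrays 1 and 3 were both on slide 2, which held no S154D DMSO and no S154A CDCA array. For these arrays slide cannot be told apart from CDCA in S154D, or from the mutant in CDCA. The arrays of slide 4, S154A CDCA array 2 and S154D DMSO array 2, were scanned on another day than the rest. Array 1 of the S154D CDCA group, on slide 2, stood apart: 17 of 58 histone genes had their lowest value there, 11 of them H3 genes, against 10.4% of all genes tested. Array 2 of the S154A DMSO group, also on slide 2, held the highest value of 24 histone genes, against 9.29% of all genes.

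Levels are log2 values relative to the 75th percentile of the same array, so that 0 is the level of that percentile, and a level of one gene is not compared with that of another. A change is a difference of group means on this scale, and a gene was called when its Benjamini-Hochberg adjusted p from limma, over all 20355 genes, was under 0.05.

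CDCA and the FXR mutant left the clustered histone genes without a called change. In S154A cells, 0 of 58 passed between CDCA and DMSO, where 0.133% of all genes were called. In S154D cells, 0 of 58 passed, where 10.2% of all genes were called, 6.55% higher and 3.65% lower. Between S154D and S154A, 0 of 58 passed in DMSO (0% of all genes) and 0 of 58 in CDCA (0.403%). For the difference between the responses, S154D minus S154A, 0 of 58 passed (0.138%). At an unadjusted limma p under 0.05 the counts were 4, 2, 2, 3 and 2 of 58 in the same order, against 5.93%, 30%, 4.32%, 23.6% and 22.3% of all genes.

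In the S154D response 3.45% of the histone genes had such a p-value, against 30% of all genes, but with the GC correction described further on the shares were 24.1% and 20.3%. Their median absolute change there was 0.171 log2 units, against 0.274 over all genes, while the median standard errors were 0.150 and 0.168. In that comparison the 95% interval of the change lay within 1 log2 unit either side of 0 for 52 of 58 histone genes (89.7%) and 73.8% of all genes, and within 0.5 for 29 (50%) and 26.4%. In S154A the interval lay within 1 log2 unit for 53 of 58.

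The plot of changes by family gives each gene's change. The median histone change was -0.12 in S154A (all genes -0.04), -0.09 in S154D (all genes -0.0066), 0.0027 between the mutants in DMSO (all genes 0.00012) and 0.05 between them in CDCA (all genes 0.06). With CDCA, 45 of 58 histone genes were below 0 in S154A (77.6%, against 59.7% of all genes) and 37 of 58 in S154D (63.8%, against 50.7%). These medians moved with single arrays. Without S154A DMSO array 2 the S154A median was -0.05, with 19 of 58 above 0 against 13 with it and 0 in place of 4 at an unadjusted limma p under 0.05, and without S154A DMSO array 3 it was -0.21. The S154D median was -0.06 without S154D CDCA array 1 and -0.14 without S154D DMSO array 3. Between the mutants, leaving out each array in turn gave -0.06 to 0.07 in DMSO and 0.03 to 0.09 in CDCA.

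Both CDCA medians changed sign within slide 3, where each group has 1 array and no test can be made. They were 0.01 in S154A (all genes -0.02) and 0.08 in S154D (all genes 0.03). Within slide 1, which held S154A with both treatments, the median was -0.17 (all genes -0.10). Between the mutants in DMSO it was 0.02 within slide 1 (all genes -0.06) and 0.03 within slide 3 (all genes 0.03). In CDCA it was 0.16 within slide 3 (all genes 0.08).

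**Figure D1:**
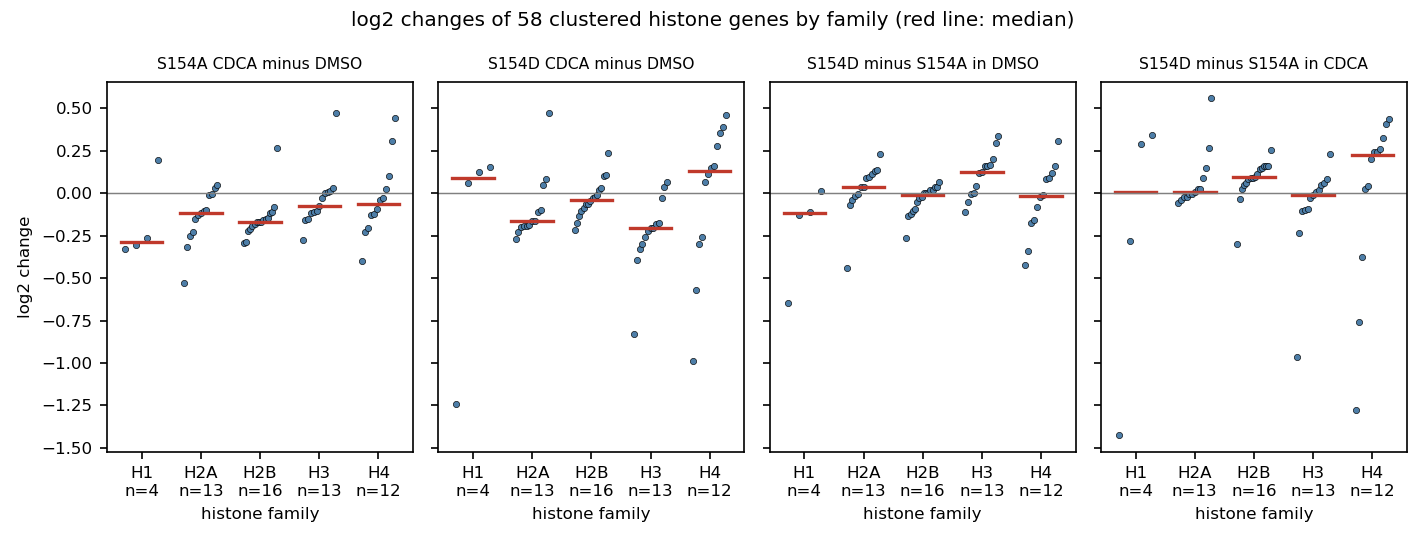
Change of each of the 58 histone genes tested (y axis, log2) by family (x axis) in the 4 comparisons between groups. Points are genes and red lines are family medians. Most points lie within 0.5 log2 units of 0, and the lowest, down to -1.42, belong to HIST1H1D, HIST1H4C, HIST1H3I and HIST1H4L in the panels that hold the S154D CDCA arrays.

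With CDCA in S154A cells the arrays did not overlap for 1 histone gene that was higher (3.77% of all genes were) and 9 that were lower (7.95%). In S154D cells the counts were 2 higher (20.2% of all genes) and 5 lower (13.4%). Between the mutants they were 2 higher (4.78%) and 1 lower (6.23%) in DMSO, and 10 higher (21%) and 3 lower (7.52%) in CDCA. The shares of histone genes were 15.5% for lower values in S154A, 3.45% for higher values in S154D and 17.2% for higher values in S154D against S154A in CDCA. HIST1H4E, a dim probe that passed the filter only through S154D CDCA, is in the counts of every comparison. It is among the lower genes in S154A and the higher genes in S154D. Between the mutants it is the 1 lower gene in DMSO and among the 10 higher in CDCA. Comparisons with the same group share its arrays and are not independent.

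The linker histones had 4 genes tested of 6. HIST1H1C and HIST1H1E, which encode somatic H1 subtypes, varied least. HIST1H1C stood at 3.73, 4.04 and 3.52 on the S154A DMSO arrays, 3.39, 3.59 and 3.32 with CDCA, 3.69, 3.93 and 3.33 in S154D with DMSO, and 3.88, 3.74 and 3.71 with CDCA. All S154D CDCA arrays were above all S154A CDCA arrays, and the other groups overlapped. The difference between the mutants in CDCA was 0.34 ± 0.17 (SE, limma adjusted p = 0.257). HIST1H1E ranged from 1.31 to 2.04 over the 12 arrays.

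HIST1H1D and HIST1H1A varied most among the linker histones. HIST1H1D stood at 0.20, -1.78 and -0.56 in S154A with DMSO, -0.36, -0.97 and -0.22 with CDCA, -0.42, -1.45 and -0.24 in S154D with DMSO, and -3.30, -1.25 and -1.27 with CDCA. Its lowest value by far was that of S154D CDCA array 1, and S154D CDCA lay below S154A CDCA without overlap. The change with CDCA in S154D was -1.24 ± 0.62 (limma adjusted p = 0.211) and -0.56 without that array. The 60 bases of its probe, at 26342678 to 26342737 on the minus strand of chromosome 6, are shown because this gene had the widest range of all histone genes, 3.50 log2 units.
HIST1H1D: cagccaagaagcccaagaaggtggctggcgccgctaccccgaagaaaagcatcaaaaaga
HIST1H1A ranged from -3.60, on S154D DMSO array 2, to -1.98, on S154A DMSO array 1.

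The H2A family had 13 genes tested of 15. Its median change with CDCA was -0.12 in S154A, with 11 of 13 below 0, and -0.17 in S154D, with 10 of 13 below 0. Of all genes 59.7% and 50.7% were below 0. Without S154A DMSO array 2 the S154A median was 0.0039, with 6 of 13 below 0. With the GC correction described further on, the H2A median was -0.055 in S154A, with 5 of 13 above 0. In S154D it turned to 0.12, with 11 of 13 above 0. HIST1H2AE was at 0.77, 0.84 and 0.46 in S154A with DMSO and at 0.29, 0.39 and 0.42 with CDCA. In S154D it was at 0.58, 0.71 and 0.58 with DMSO and at 0.52, 0.46 and 0.41 with CDCA. Every CDCA array was below every DMSO array of the same mutant. Its change in S154A, -0.32 ± 0.11, had an unadjusted p of 0.016 and an adjusted p of 0.803 by limma.

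HIST1H2AB, which also encodes a replication-dependent H2A, repeated this order. It was at -1.47, -1.22 and -1.61 in S154A with DMSO and -1.70, -1.64 and -1.70 with CDCA, and at -1.37, -1.48 and -1.46 in S154D with DMSO and -1.59, -1.71 and -1.80 with CDCA. DMSO and CDCA did not overlap with either mutant. The changes were -0.25 ± 0.11 (limma adjusted p = 0.838) and -0.27 ± 0.11 (adjusted p = 0.141).
HIST2H2AC had a narrow range, from 2.21 to 2.52. In S154D it was at 2.47, 2.52 and 2.40 with DMSO and 2.21, 2.36 and 2.25 with CDCA, without overlap (change -0.19 ± 0.09, limma adjusted p = 0.199). HIST1H2AH ranged from 3.07 to 3.51, HIST1H2AJ from 1.97 to 2.48, and HIST2H2AA3, whose probe reaches the stem-loop shown above, from 4.01 to 4.56.

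Among the H2B genes, 16 of 17 were tested. With CDCA in S154A, 15 of 16 lay below 0 and the median was -0.17, whereas in S154D 11 of 16 lay below 0 and the median was -0.04. Without S154A DMSO array 2 the S154A median was -0.07, with 14 of 16 below 0. With the GC correction the H2B median was -0.10 in S154A, with 1 of 16 above 0. In S154D it turned to 0.23, with 13 of 16 above 0. HIST1H2BC was at -0.56, -0.29 and -0.61 with DMSO and -0.78, -0.85 and -0.70 with CDCA in S154A. In S154D it was at -0.54, -0.58 and -0.71 with DMSO and -0.57, -0.83 and -0.76 with CDCA. The S154A groups were separate and the S154D groups overlapped. The changes were -0.29 ± 0.12 (limma adjusted p = 0.830) and -0.11 ± 0.12 (adjusted p = 0.567), and their difference, 0.19 ± 0.16, was not called (adjusted p = 0.530).

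HIST1H2BG behaved alike on the S154A arrays. It was at -1.15, -0.93 and -1.23 with DMSO and -1.38, -1.41 and -1.38 with CDCA, and its change was -0.29 ± 0.11 (limma adjusted p = 0.830). HIST1H2BJ was at -0.68, -0.67 and -0.79 in S154D with DMSO and -0.89, -0.91 and -0.87 with CDCA, without overlap (change -0.18 ± 0.10, limma adjusted p = 0.273). A second HIST1H2BJ probe, centred 7030 bases away on the genome and well above background on all 12 arrays, fell short of a call too. It was at -3.08, -3.49 and -3.02 in S154D with DMSO and at -4.03, -4.17 and -3.46 with CDCA, which overlapped, and its change was -0.69 ± 0.21 (limma, 26898 probes, adjusted p = 0.0576). HIST2H2BE and HIST1H2BN, whose probes share 41 bases, varied least, from 0.46 to 0.76 and from 1.03 to 1.35. HIST1H2BK ranged from -0.11 to 0.63.

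HIST1H2BD varied most in this family, and its brightest probe lies on the strand opposite to the gene's other probe. The reverse complement of the stretch in capitals, 15 bases, is part of the HIST1H2BI probe, and by its hg17 coordinates the probe runs on the minus strand while the gene's other probe runs on the plus strand. The probes are shown with that stretch in capitals in the first 2.
HIST1H2BD, brightest: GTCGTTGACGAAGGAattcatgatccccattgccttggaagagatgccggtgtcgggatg
HIST1H2BI: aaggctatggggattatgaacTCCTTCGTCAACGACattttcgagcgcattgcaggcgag
HIST1H2BD, other: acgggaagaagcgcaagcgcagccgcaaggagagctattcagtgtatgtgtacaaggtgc
The brightest probe was at 1.06, 0.60 and 0.49 in S154A with DMSO, 0.64, 1.75 and 0.56 with CDCA, 0.74, 0.58 and 0.43 in S154D with DMSO, and 0.19, 1.01 and 0.85 with CDCA. S154A CDCA array 2 was the highest, and all groups overlapped. The other probe stayed between 0.48 and 0.87. Their changes with CDCA in S154A differed in sign, 0.27 ± 0.32 and -0.20 ± 0.09, and neither was called (limma adjusted p = 0.969 and 0.900 over 26898 probes). HIST3H2BB also has a second probe on the opposite strand, whose reverse complement shares 30 bases with the HIST1H2BN probe. It too was highest on S154A CDCA array 2, at 1.25, against 0.02 to 0.52 elsewhere.

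All 13 H3 genes on the array were tested. In S154D 11 of 13 were below 0 with CDCA and the median change was -0.21, whereas in S154A 8 of 13 were and the median was -0.07. The H3 values in S154D rest on 1 array: 11 of 13 genes were lowest on S154D CDCA array 1, and without it the median change in S154D was -0.07, with 10 of 13 below 0. With the GC correction and all arrays the H3 median in S154D was 0.06, with 8 of 13 above 0. In S154A it was -0.0013, with 6 of 13 above 0. HIST3H3, the gene of a testis-type H3, was at 5.71, 5.74 and 5.56 in S154A with DMSO, 5.72, 5.63 and 5.70 with CDCA, 5.82, 5.96 and 5.83 in S154D with DMSO, and 5.47, 5.98 and 5.61 with CDCA. In DMSO the S154D arrays were all above the S154A arrays, by 0.20 ± 0.13 (limma adjusted p = 0.997). The same order held for the brightest HIST2H3A probe, at 3.20, 3.27 and 3.21 in S154A and 3.58, 3.51 and 3.47 in S154D (0.29 ± 0.16, limma adjusted p = 0.997). It did not hold for the gene's other kept probe. That probe was at 3.23, 3.40 and 3.17 in S154A and at 3.27, 3.07 and 3.46 in S154D, which overlapped. Of 12 histone genes with more than 1 kept probe, 8 had kept probes that differed in sign in this comparison.

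HIST1H3E was among the steadiest, from 0.39 to 0.80. HIST2H3PS2, whose probe shares 40 bases with a HIST2H3A probe that was not used, ranged from 3.43 to 4.24. HIST1H3I varied most, at -2.37, -4.50 and -2.96 in S154A with DMSO, -2.81, -3.14 and -2.47 with CDCA, -2.58, -3.76 and -2.49 in S154D with DMSO, and -4.93, -3.03 and -3.36 with CDCA. Its lowest values were those of S154D CDCA array 1, S154A DMSO array 2 and S154D DMSO array 2, the same arrays as for HIST1H1D, and all groups overlapped. Its change in S154D was -0.83 ± 0.61 (limma adjusted p = 0.396), and -0.25 without S154D CDCA array 1. Its probe is shown beside that of HIST1H1D because of this shared order, which was noticed after the values were seen.
HIST1H3I: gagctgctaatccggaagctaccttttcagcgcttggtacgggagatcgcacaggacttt

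Of the 14 H4 genes, 12 were tested. HIST1H4C was at 5.45, 3.98 and 5.19 in S154A with DMSO, 5.26, 5.38 and 5.30 with CDCA, 5.34, 4.54 and 5.20 in S154D with DMSO, and 2.06, 5.00 and 5.06 with CDCA. The value on S154D CDCA array 1 was far below all others, and the next were those of S154A DMSO array 2 and S154D DMSO array 2. With CDCA in S154D the change was -0.99 ± 0.70 (limma adjusted p = 0.375), and it was 0.0011 without S154D CDCA array 1.

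HIST1H4L gave the same picture at other values. It was at 1.28, 0.67 and 1.18 in S154A with DMSO, 1.32, 1.45 and 1.29 with CDCA, 1.34, 0.76 and 1.40 in S154D with DMSO, and -0.61, 1.16 and 1.24 with CDCA. S154A CDCA lay above S154A DMSO (0.31 ± 0.42, limma adjusted p = 0.949) and above S154D CDCA, both without overlap. Without S154A DMSO array 2 the first of these differences was 0.12, and without S154D CDCA array 1 S154D differed from S154A in CDCA by -0.15, against -0.76 with it. The change in S154D was -0.57 ± 0.42 (limma adjusted p = 0.398), and 0.03 without S154D CDCA array 1. HIST1H4B too was lowest on that array, at -2.22, against -1.60 to -0.90 elsewhere.

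HIST1H4J and HIST1H4K, the genes with the shared stretch printed above, ran the other way. On S154D CDCA array 1 they had their highest values, 3.73 and 3.10. Next came S154A DMSO array 2, at 3.66 and 2.91, and S154D DMSO array 2, at 3.55 and 2.87, against at most 3.47 and 2.58 on the other arrays. In all, 5 histone genes had their 3 lowest values on these 3 arrays (8.62%, against 4.98% of all genes with a value on every array) and 9 had their 3 highest there (15.5%, against 5.81%). These 3 arrays belong to 3 groups and were picked out after the values were seen, and why they differ was not tested. HIST2H4A, at 1.56 to 2.09, and HIST1H4I, at 0.84 to 1.48, varied least in the family.

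**Figure D2:**
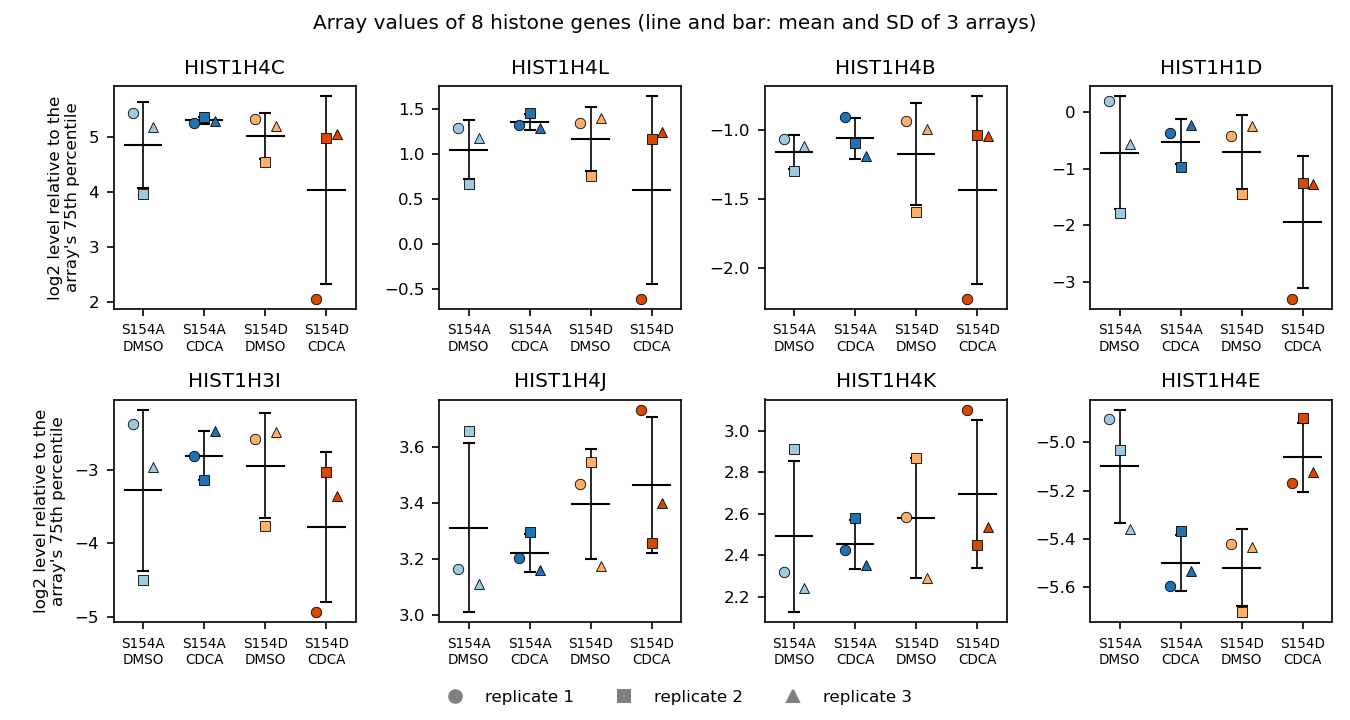
Level of 8 histone genes on each array (y axis, log2 relative to the array's 75th percentile, with a scale of its own in each panel) by group (x axis). Points are arrays, with a symbol for each replicate number, and lines with bars are the mean and SD of 3 arrays. S154D CDCA array 1 (circle) is lowest for HIST1H4C, HIST1H4L, HIST1H4B, HIST1H1D and HIST1H3I and highest for HIST1H4J and HIST1H4K.

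HIST1H4F and HIST1H4H were higher with S154D than with S154A under CDCA. HIST1H4F was at -0.66, -0.29 and -0.83 in S154A with DMSO, -0.66, -0.97 and -0.82 with CDCA, -0.57, -0.66 and -1.07 in S154D with DMSO, and -0.32, -0.45 and -0.47 with CDCA. All S154D CDCA arrays were above those of S154D DMSO and of S154A CDCA, by 0.35 ± 0.17 (limma adjusted p = 0.191) and 0.41 ± 0.17 (adjusted p = 0.182). Without S154D DMSO array 3 the first of these was 0.20. HIST1H4H in CDCA was at 1.15, 0.92 and 0.98 in S154A and at 1.33, 1.37 and 1.32 in S154D (0.33 ± 0.18, limma adjusted p = 0.295). The family median between the mutants in CDCA was 0.22, with 9 of 12 above 0 (56.3% of all genes were). These 9 include HIST1H4D and HIST1H4E, dim probes that passed the filter only through S154D CDCA, so the count carries no weight from them.

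Among the probes used, that of HIST1H4E came nearest to a call. It was at -4.90, -5.03 and -5.36 in S154A with DMSO, -5.60, -5.37 and -5.53 with CDCA, -5.42, -5.70 and -5.43 in S154D with DMSO, and -5.17, -4.90 and -5.12 with CDCA. The CDCA arrays were all lower than DMSO in S154A and all higher in S154D. The changes were -0.40 ± 0.14 (limma adjusted p = 0.825) and 0.46 ± 0.14 (adjusted p = 0.0648), and their difference, 0.86 ± 0.20, had an unadjusted p of 0.00158 and an adjusted p of 0.0804. The probe was dim, well above background on 2 of 3 arrays in each group other than S154D CDCA, where it was so on 3 of 3. It passed the filter through that group alone, in which it is high, so this difference is described without weight. Within slide 3 the changes were -0.24 and 0.54, and within slide 1 the change in S154A was -0.63.

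The histone probes are richer in G and C than most. Their median GC content was 53.3%, against 45% over all genes tested, and it ran from 36.7% to 75%. Over all genes, the change with CDCA in S154D fell with GC content (Spearman's rho -0.56 across 20355 genes, which share arrays and are not independent), from a median of 0.30 for probes between 35% and 40% to -0.27 for probes between 55% and 60%. Over the 58 histone genes the rho was -0.05. The 21 histone genes between 50% and 55% had a median of -0.09, against -0.25 for the 1989 genes of that range, and the 20 between 55% and 60% had -0.12, against -0.27 for 2430 genes.

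With the trend over GC content removed on each array, the median histone change in S154D moved from -0.09 to 0.16, and 43 of 58 were above 0 (74.1%, against 47.8% of all genes). The number with an unadjusted limma p under 0.05 went from 2 to 14. With the correction 0 histone genes were called (lowest adjusted p = 0.108), but so were 0 of all 20355 genes. No set of genes could have held a call there. These 14 are 24.1% of the histone genes, against 20.3% of all genes with the same correction. Between the mutants in CDCA the median moved from 0.05 to 0.15, with 47 of 58 above 0 (81%, against 48% of all genes). There 0 histone genes were called (lowest limma adjusted p = 0.156), against 75 of all 20355 genes. Between the mutants in DMSO the median moved from 0.0027 to -0.07, with 19 of 58 above 0 (32.8%, against 51.3% of all genes). With CDCA in S154A it moved from -0.12 to -0.06, with 19 of 58 above 0 (32.8%, against 51.7%). So the direction of the histone median in S154D depends on whether GC content is taken into account. In the plot against GC content most histone points lie above the line of all genes.

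**Figure D3:**
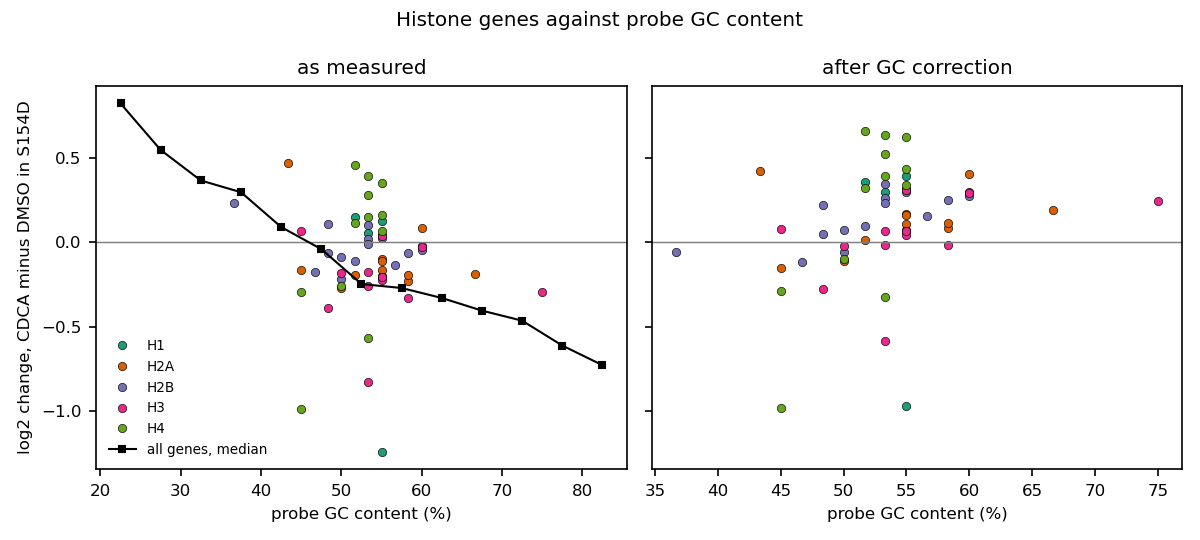
Change with CDCA in S154D cells (y axis, log2) of the 58 histone genes, coloured by family, against the GC content of the probe (x axis, percent), as measured (left) and after the GC trend was removed on each array (right). The black line joins the medians of all genes tested in steps of 5 percentage points with at least 20 genes. It falls from 0.82 to -0.73, and after correction 43 of 58 histone genes are above 0.

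The genes that serve the histones were read from lists of proteins with that role. Of 16 genes for histone transcript processing and transcription, 1 was called in S154D with CDCA, where 10.2% of all genes were: CASP8AP2, the FLASH protein of histone pre-mRNA processing, rose by 0.52 ± 0.11 (limma adjusted p = 0.0299), from -0.07 ± 0.07 to 0.45 ± 0.18 (SD, n = 3). The call ended with the GC correction (change 0.17, limma adjusted p = 0.446), with which 0 of all genes were called in S154D. It ended in 15 of 30 alternatives in all, several of which called 0 of all genes there. The list's median was 0.07. In the other 4 comparisons 0 of 16 were called, where at most 0.403% of all genes were. Between the mutants in CDCA the lowest adjusted p-values of the list were those of CASP8AP2 and THEX1, the 3′ exonuclease of histone mRNA (0.53 ± 0.11 and 0.35 ± 0.10, limma adjusted p = 0.0661 and 0.105).

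Of 16 histone chaperones, which carry histones to and from DNA, 1 was called in S154D with CDCA. SET rose by 0.65 ± 0.16 (limma adjusted p = 0.0371), but the mean of its kept probes was -0.12 and so went the other way. Of 17 genes of S phase and DNA replication, 2 were called there. Both counts are near the 10.2% of all genes called. PCNA, the sliding clamp of DNA polymerase, rose by 0.52 ± 0.14 (limma adjusted p = 0.0426). MCM5, a subunit of the replicative helicase, fell by 0.44 on the log2 scale (SE 0.12, adjusted p = 0.0441). The median changes of the chaperones and of the S phase genes were 0.04 and 0.18, and 9 of 16 and 13 of 17 were above 0, against 49.3% of all genes. These calls too ended with the GC correction, where 0 of all genes were called. They ended in 18 of 30 alternatives for SET and in 21 of 30 for each of PCNA and MCM5. Several of those alternatives, such as the slide block and the replicate block, called 0 of all genes in S154D. A call lost there does not set these genes apart.

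Replication-independent histones are encoded outside the clusters and are made through the cell cycle. Of 11 tested, 1 was called in S154D with CDCA, near the 10.2% of all genes called there: H1FX, a linker histone, fell by 0.65 on the log2 scale (SE 0.18, limma adjusted p = 0.0469), from 2.63 ± 0.11 to 1.98 ± 0.39 (SD, n = 3), and the call held in 7 of 30 alternatives. Several of these alternatives called 0 of all genes there. The median of the list was -0.14, with 3 of 11 above 0. Between the mutants in CDCA the lowest adjusted p-values of this list were those of H1FX and the H2A variant gene H2AFZ (-0.48 ± 0.18 and 0.29 ± 0.11, limma adjusted p = 0.153 and 0.166). In the 4 comparisons other than CDCA in S154D, 0 members of the chaperone, S phase and replication-independent lists were called.

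Over the 12 arrays the median range of a histone gene was 0.58 log2 units, against 0.82 over all genes tested, and the range exceeded 2 for 8.62% of histone genes and 10.1% of all genes.

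**Figure D4:**
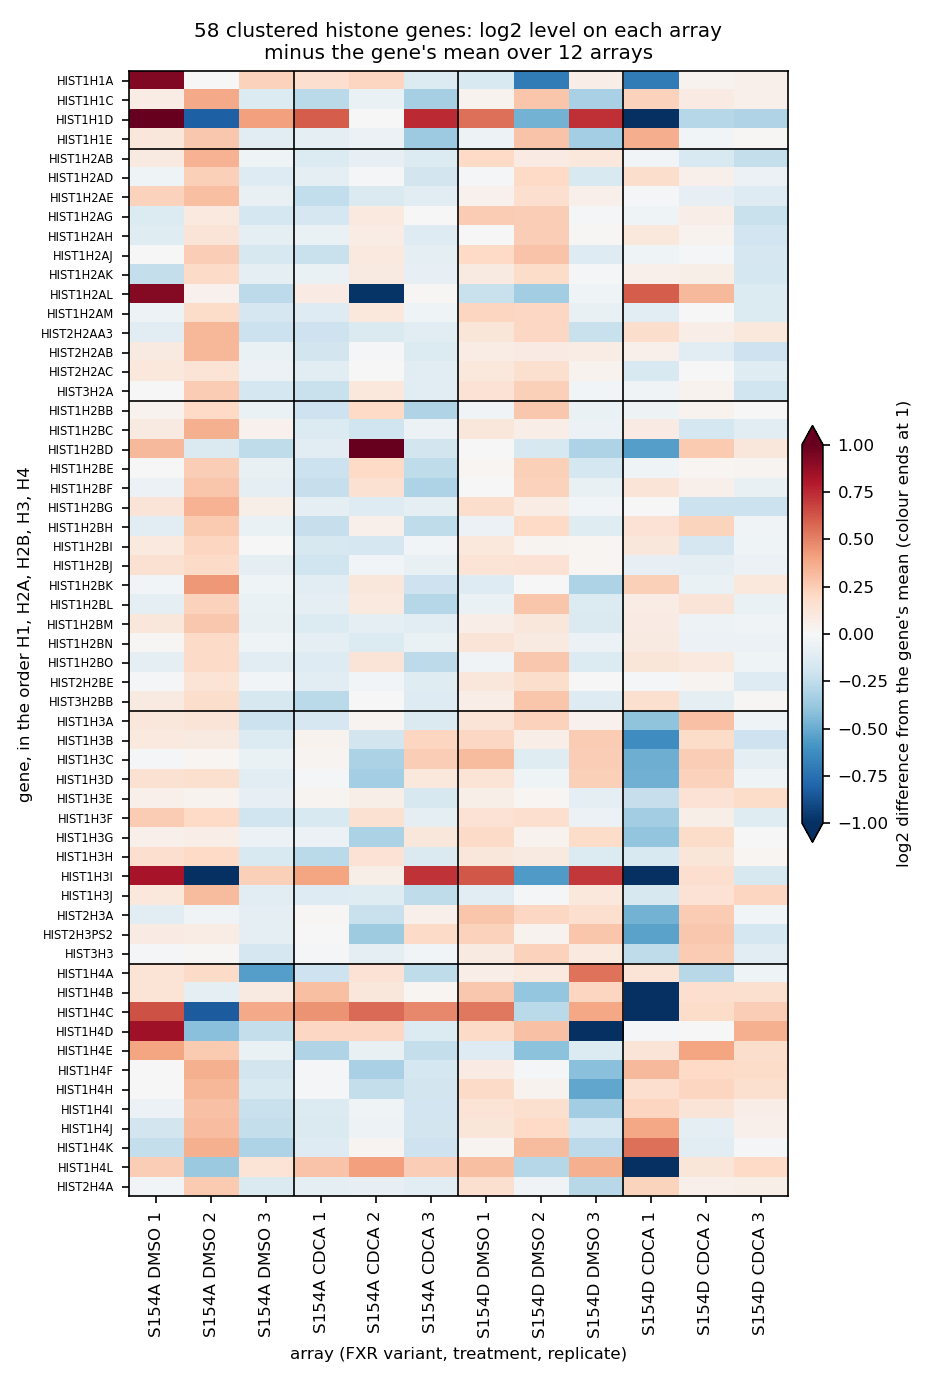
Level of the 58 histone genes on each of the 12 arrays (columns, by group) as the log2 difference from the gene's own mean (colour, red higher and blue lower, ending at 1). Rows run through H1, H2A, H2B, H3 and H4. The column of S154D CDCA array 1 is blue through the H3 rows, 11 of which have their lowest value there, and the column of S154A DMSO array 2 holds the highest value of 7 of 13 H2A and 10 of 16 H2B rows.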

How the data were processed

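The deposited scanner files hold intensities that the authors' software, Agilent Feature Extraction (version 9.5.3.1 per the file headers, version 12 per the submitters' processing notes), had background-subtracted and detrended within each array. Probe coordinates in them are of hg17. The deposited series table holds the same intensity values, without scaling between arrays. From the processed signal, outlier spots were removed, log2 was taken, the 75th percentile of non-control spots was subtracted, and spots of a probe were averaged. Probes were kept if every array of 1 group or more had them well above background (26898 probes), and the brightest stood for its gene.

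Group means were fitted to all 12 arrays with limma 3.58.1 (R 4.3.3, data.table package version 1.17.8; 8 residual and 2.3 prior degrees of freedom), and two-sided p-values were adjusted over 20355 genes. The code was tested on simulated data. The number of arrays limits the precision. GC correction fitted, on each array, a smooth curve over GC content (span 0.5) to the deviations from each gene's mean, and subtracted it. Sequence searches used Python 3.11.15 and pandas 2.3.3. The labels' replicate numbers were not used as pairs.

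Members and lists were chosen with earlier results of these data known. Named histone genes were those called, and in each comparison the 3 largest rises and falls without overlap between arrays well above background, and per family the 2 genes of smallest and of largest spread. HIST1H4E, HIST1H4B, HIST1H4J, HIST1H4K and probes on the opposite strand were added after their values were seen. Lists of histone processing, chaperone, S phase, replication-independent histone and marker genes were read by counts. Alternatives were other normalizations, background corrections, filters and probe rules, the unscaled table, slide and replicate blocks, GC correction and leaving out arrays or slides. No monkey genome or sequence was used here.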

Additional observations from a re-analysis of the deposited data

Results flagged for a closer look

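HIST1H4E was lower with CDCA on every array in S154A and higher on every array in S154D, and the difference of the responses, 0.86 ± 0.20 log2 units (SE, n = 3 arrays in each of 4 groups), had a limma p of 0.00158 and an adjusted p of 0.0804. Its probe passed the filter only through S154D CDCA, a group in which it is high, so the p-value carries no weight. The probe was near background, at levels from -5.70 to -4.90, and over the alternatives the difference ranged from 0.21 to 1.14, with adjusted p from 0.0716 to 0.619.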

How the results depend on the processing

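In every comparison 0 of 58 histone genes were called under all alternatives run, which were 30 for each comparison between groups and 29 for the difference of responses, while the number with an unadjusted limma p under 0.05 ranged from 0 to 15. All genes called with CDCA in S154D ranged from 0 to 2690. Several alternatives, among them the GC correction and the slide block, called 0 of all genes there, which fixed 0 histone calls. The ranges were 0 to 45 with CDCA in S154A and 0 to 131 for the difference of responses. Between the mutants they were 0 to 1 in DMSO and 0 to 265 in CDCA. With the GC correction 15 histone genes (25.9%) had such an unadjusted p between the mutants in CDCA, against 17.7% of all genes. The median histone change moved by more than its spread between arrays (SD 0.098) as follows. With the unscaled table it was -0.219 for CDCA in S154A, 0.089 for CDCA in S154D, -0.24 between the mutants in DMSO and 0.36 for the difference of responses. The medians of all genes moved there too, to -0.142, 0.175, -0.243 and 0.322 in the same order. With the GC correction the histone median was 0.16 in S154D, 0.15 between the mutants in CDCA and 0.19 for the difference. The GC correction with slide as a block gave 0.17, 0.19 and 0.19 for these, and with the replicate block 0.16, 0.15 and 0.19. Within slide 3 it was 0.0103 in S154A, 0.0804 in S154D and 0.16 between the mutants in CDCA. By less than that spread, the median in S154D moved to 0.0015 without slide 2. For the difference of responses it moved, also by less, to -0.02 without S154A DMSO array 2, against 0.08 with it. Signs turned with the GC correction for HIST2H2AC in S154D (0.0128, with the replicate block 0.0128, with slide 0.0889). With GC correction and slide they turned for HIST1H3I (0.24), HIST1H4L (0.0731) and SET (-0.0811) in S154D, and with the mean of the kept probes for SET (-0.12). With the unscaled table they turned for HIST1H2BJ in S154D (0.0047) and HIST3H3 in DMSO (-0.0442). Leaving out each array in turn, the change in S154D ranged from -1.50 to 0.0011 for HIST1H4C and from -0.89 to 0.0342 for HIST1H4L, and turned only without S154D CDCA array 1. The cause was not tested. With a replicate block 0 histone genes were called, and 0 of all genes in S154D against 2077 without it. The labels' numbers share no stated batch. Of pairs of same-numbered arrays, 9 of 18 correlated above 0.1 (-0.35 to 0.51), and of pairs with other numbers 15 of 36 did (-0.48 to 0.49). Leaving out slides 1 to 4 in turn was added after the data were seen. At 3 arrays a group, dim probes such as HIST1H4E limit what could be called.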

Other observations

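Of the 83 histone probes, 8 were centred over 500 bases from the brightest probe of their gene on the genome, and 2 of these were well above background on all 12 arrays, those of HIST1H2BJ (7030 bases away) and HIST2H2BE (1616 bases). The second HIST2H2BE probe stood at -4.30 to -2.99, with a change in S154D of -0.19 ± 0.25 (limma, not called). The others, of HIST1H2AG, HIST1H2AK, HIST1H2BN, HIST1H3G, HIST4H4 and another HIST2H2BE probe, were well above background on 0 to 2 arrays.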
